A study of Homo sapiens with 4 samples.

Results

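The protocadherins, the largest family within the cadherin superfamily of adhesion receptors, were described in U87 MG, an established line of human glioblastoma cells, after silencing of PELP1. Members were all gene symbols that begin with PCDH: 70 of the 23228 symbols counted. Of these, 57 are clustered (15 PCDHA, 19 PCDHB and 23 PCDHG genes) and 13 are non-clustered. The family was chosen by its name after the change with PELP1 siRNA had been seen in these same libraries, so its values in that contrast are a description and no test of the family as a whole was made.

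RNA was sequenced from 2 libraries of cells given siRNA against PELP1 and 2 libraries of cells given a control siRNA, all of the same parental line and all taken 72 hours after transfection. Small interfering RNAs (siRNA) are short duplexes that guide the cell's own machinery to cut a matching mRNA. PELP1 encodes a coregulator of nuclear receptors that also acts in chromatin remodelling and in the making of large ribosomal subunits. The labels number the duplicates and say nothing of separate cultures, so p-values measure only the spread between these libraries, which may be technical. The sequence of either siRNA was not given in the sources used here.

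Protocadherins are membrane proteins with extracellular cadherin repeats, through which like molecules on adjoining cells bind each other. The clustered genes stand in tandem on chromosome 5, and in single neurons of the mouse each cell switches on a different handful of them, which gives the cell a surface identity used in self-avoidance of its branches. Each gene of the PCDHA and PCDHG clusters has its own promoter and its own large first exon, which is spliced to constant exons shared by the whole cluster. PCDHB genes have a single large coding exon and share none. The non-clustered genes lie apart from each other, are transcribed from ordinary promoters and take part in cell sorting, migration and synapse formation.

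The clustered promoters carry a conserved element with the core CGCT, at which the insulator protein CTCF binds in neurons and other cells. To show how alike these promoters are within a cluster and how they differ between clusters, 40 bases around the core are given for the most abundant member of each cluster that has an entry with its word and for other members whose values are described below. The capitals mark the word that recurs in the promoters of each cluster, GATGTCGCT for PCDHA, GGTGGCGCT for PCDHB and GNCGCTGT for PCDHG.
PCDHA1: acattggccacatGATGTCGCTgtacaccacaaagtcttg
PCDHA10: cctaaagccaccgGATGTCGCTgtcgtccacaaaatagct
PCDHB14: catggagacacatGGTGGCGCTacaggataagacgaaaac
PCDHB16: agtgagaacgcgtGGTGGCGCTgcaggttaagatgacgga
PCDHB7: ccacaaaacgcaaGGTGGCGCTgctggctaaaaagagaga
PCDHGA1: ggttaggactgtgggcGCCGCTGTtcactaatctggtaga
PCDHGA9: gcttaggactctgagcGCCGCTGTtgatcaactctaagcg
PCDHGC3: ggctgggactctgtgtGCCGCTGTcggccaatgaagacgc

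The sequences run 5′ to 3′ on the plus strand and come from RefSeq (GRCh38.p14). Each matched GRCh37, the build of the counts, at 1 place on chromosome 5. These places are chr5:140165669-140165708 for PCDHA1, chr5:140235424-140235463 for PCDHA10 and chr5:140602833-140602872 for PCDHB14. They are chr5:140561883-140561922 for PCDHB16, chr5:140552145-140552184 for PCDHB7 and chr5:140709968-140710007 for PCDHGA1. PCDHGA9 has chr5:140782279-140782318 and PCDHGC3 has chr5:140855445-140855484. All 8 lie upstream of the annotated start of their gene.

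Promoters of 300 bases, from 250 before to 50 after the start, were listed for 58 of the 70 members, 47 of them clustered, and 39 of the 47 held the word of their own cluster on the gene's strand. The PCDHA word stood in 9 of 13 PCDHA promoters and 0.074% of all 35116 promoters (0.105% on either strand). The PCDHB word stood in 13 of 14 PCDHB promoters and 0.302% of all promoters (0.501% on either strand). The PCDHG word stood in 17 of 20 PCDHG promoters and 2.45% of all promoters (4.35% on either strand). The words overlap in part: all 3 contain CGCT, and the PCDHG word was also found in 5 PCDHA promoters and 1 PCDHB promoter. None of the 3 words occurred in the 11 listed promoters of non-clustered members on either strand, 6 of which held CGCT alone on the gene's strand, as did 54.3% of all promoters. The words were chosen after these promoters had been read, and a match is a run of letters and not a measured binding site.

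The core lay a median of 48 bases before the RefSeq start in PCDHA (38 to 81), 61 in PCDHB and 58 in PCDHG (39 to 199). The 199 bases are those of PCDHGB2, for which GENCODE places the start nearer to the core. In PCDHB the distances ran up to 79 bases before the start, and 1 gene, PCDHB8, had its core just after it. Members that passed the test described below and members that did not both carried the word. Among tested PCDHB genes with a listed promoter, it stood in 2 of 2 that rose and in 9 of 9 that did not pass. Among PCDHG genes it stood in 1 of 1 that rose and in 8 of 9 that did not pass. The only tested PCDHA gene, PCDHAC2, which has the most reads of its cluster, did not pass, and its listed promoter lacked the word.

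**Figure D1:**
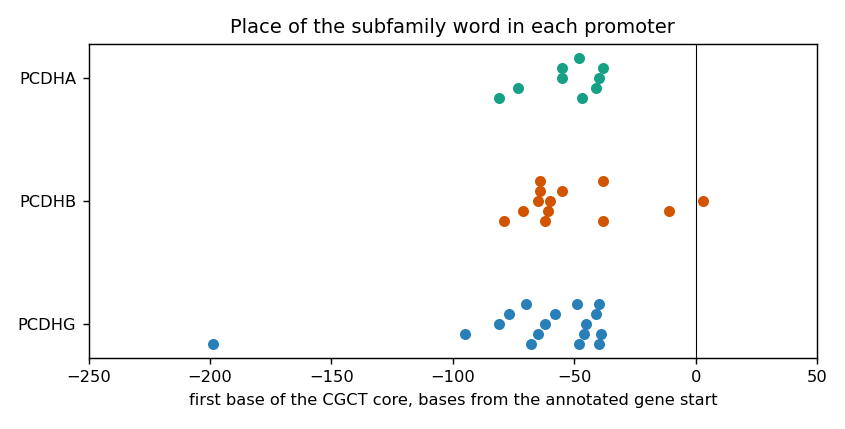
Distance from the RefSeq gene start (0) to the first base of the CGCT core, for the 9 PCDHA, 13 PCDHB and 17 PCDHG promoters that hold the word of their cluster. Each point is a gene, negative values lie before the start, and vertical spread within a row only separates points. Most cores lie less than 100 bases before the RefSeq start, with PCDHGB2 at 199.

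Counts over genes came to 18670162 to 19389684 in PELP1 siRNA libraries and 19662271 to 22858988 in control siRNA libraries. PELP1 itself stood at 15.2 and 17.7 CPM (reads of a gene, scaled to equal library sizes) with PELP1 siRNA, against 74.0 and 78.1 CPM with control siRNA. PELP1 had a log2 fold change of -2.21 (SE 0.0966, adjusted p = 8.32e-14, edgeR quasi-likelihood test). Of the markers of a mesenchymal glioblastoma state, FN1 (fibronectin) stood at 2294 and 2294 CPM with PELP1 siRNA and at 3270 and 3121 CPM with control siRNA, and CD44 at 2002 and 1956 CPM with PELP1 siRNA and at 2457 and 2483 CPM with control siRNA. Both fell (log2 -0.48 and -0.32, adjusted p = 1.26e-06 and 0.000192, edgeR), and VIM and TIMP1, which also fell, were not called without control siRNA library 2 (adjusted p = 0.0728 and 0.153). Of the 6 astrocyte markers AQP4 and ALDH1L1 were at 0 in every library. The list summed to 73.6 and 69.1 CPM with PELP1 siRNA and 49.8 and 53.0 CPM with control siRNA, nearly all of it from the glutamate transporter SLC1A3. Of 7 neuron markers 3 were tested. The list summed to 58.0 and 63.3 CPM with PELP1 siRNA and to 72.9 and 78.4 CPM with control siRNA. The synaptic protein SNAP25 fell to 31.3 CPM with PELP1 siRNA, against 48.3 CPM with control siRNA. The synaptic calcium sensor SYT1 stood at 18.3 and 19.4 CPM with PELP1 siRNA, above 14.4 and 16.6 CPM with control siRNA, without passing (log2 0.28, adjusted p = 0.0608), and GAD1 overlapped. The defining neuronal genes RBFOX3 and STMN2 were near 0 in all libraries. The immune list summed to 17.4 and 19.6 CPM with PELP1 siRNA and to 20.8 and 21.3 CPM with control siRNA, nearly all of it from CSF1R, a macrophage growth factor receptor, while AIF1 and CD3E were at 0 in every library. The endothelial list summed to 4.42 and 3.53 CPM with PELP1 siRNA and to 2.94 and 3.66 CPM with control siRNA, with CLDN5 at 0, and the oligodendrocyte list to 2.49 and 2.53 CPM with PELP1 siRNA and to 2.06 and 3.75 CPM with control siRNA, with MOG at 0. The epithelial list summed to 2.59 and 2.63 CPM with PELP1 siRNA and to 2.37 and 2.81 CPM with control siRNA. In it EPCAM was called higher (log2 1.02, adjusted p = 0.0188) and CLDN4 lower (-1.36, adjusted p = 0.0432), and neither was called without PELP1 siRNA library 1 (0.0627 and 0.222), without control siRNA library 1 (0.211 and 0.0635) or without control siRNA library 2 (0.0585 and 0.425). The part of these shifts in the protocadherin values was not tested. In bulk RNA, fewer cells of a type and less RNA per cell cannot be told apart.

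Few protocadherins were abundant in these cells, and the abundant ones came from different branches of the family. Of the 70 members, 32 passed the filter on low counts and were tested: 1 PCDHA, 14 PCDHB, 11 PCDHG and 6 non-clustered genes. PCDHGC3, a C-type member of the PCDHG cluster that many tissues express, had the most reads of the clustered genes. PCDH9, PCDH7, PCDH17 and PCDH18 together made up 92.6 to 94.3% of the non-clustered sum in the 4 libraries.

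Levels of different genes were compared per kilobase of exon not shared with another gene on the same strand. These lengths join all exons that GENCODE lists for a gene. They need not be those of the annotation used for counting, which was not given. On this scale PCDHGC3 was first, at 19.7 CPM per kilobase with PELP1 siRNA and 19.5 with control siRNA. PCDH17 stood at 3.65 CPM per kilobase with PELP1 siRNA and 3.03 with control siRNA. PCDH7 stood at 3.52 CPM per kilobase with PELP1 siRNA and 2.06 with control siRNA, and PCDHGC5 at 3.47 with PELP1 siRNA and 3.28 with control siRNA. PCDHGC3 thus stood apart from all other members among the 31 ranked, while PCDH17, PCDH7 and PCDHGC5 lay close together with PELP1 siRNA. PCDHB16 stood at 2.48 CPM per kilobase with PELP1 siRNA and 2.63 with control siRNA. The order below PCDHGC3 differed between the groups: with PELP1 siRNA it was PCDH17, PCDH7, PCDHGC5 and PCDHB16, and with control siRNA it was PCDHGC5, PCDH17, PCDHB16 and PCDH7. PCDH9, whose annotated exons add up to 30944 bases, stood at 1.84 CPM per kilobase with PELP1 siRNA and 1.77 with control siRNA. PCDH15, a component of the tip links of hair cells in the inner ear, was lowest of those ranked, at 0.160 CPM per kilobase with PELP1 siRNA and 0.165 with control siRNA.

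Of the 32 members tested, 7 rose with PELP1 siRNA, beside 12.9% of all 13234 genes tested, and 0 fell, beside 15.0% of all genes tested. The 7 were PCDH7, PCDH18, PCDH17, PCDHB14, PCDHB6, PCDHB5 and PCDHGA1. The other 25 did not pass the threshold. At an unadjusted p under 0.05 there were 10, each with a higher mean with PELP1 siRNA, beside 18.7% of all genes tested higher and 20.2% lower by that rule. DESeq2's Wald test gave an adjusted p for 26 of the 32 members. It called PCDH7 and PCDH18 higher, beside 9.23% of the 12207 genes with an adjusted p, and 0 lower, beside 11.7%. Both PELP1 siRNA libraries lay above both control siRNA libraries for 14 members, beside 32.0% of all genes tested, and below both for 2, PCDHAC2 and PCDHGC4, beside 32.3% of all genes tested. For the other 16 the libraries of the groups overlapped. The median log2 fold change was 0.17 over the members tested, 0.39 over PCDHB, 0.019 over PCDHG and 0.35 over non-clustered members, beside 9e-04 over all genes tested. Members that are high in 1 group only can pass the filter through that group, so these counts and medians describe the genes tested and not all members.

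**Figure D2:**
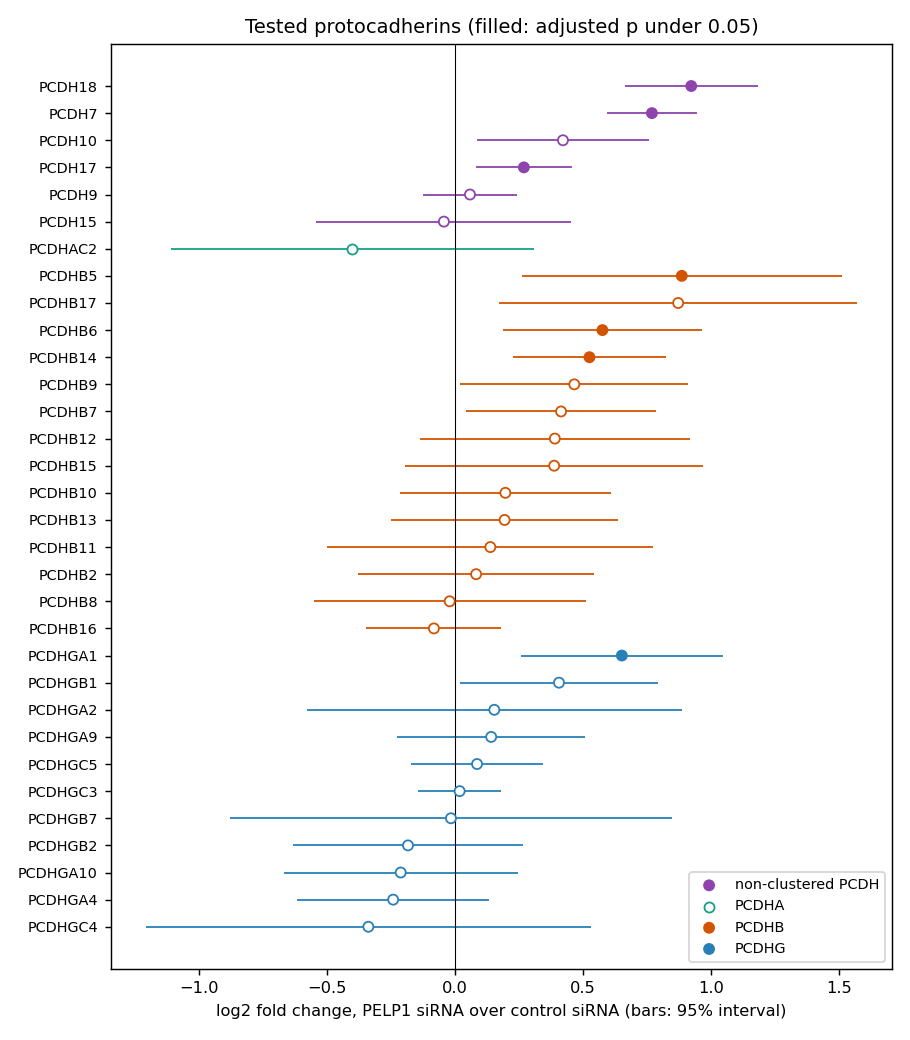
Log2 fold change, PELP1 siRNA over control siRNA, of the 32 protocadherins tested, by branch and then by size. Bars are approximate 95% intervals, 1.96 SE to each side, and are somewhat narrow beside the edgeR test. Those of PCDHB9 and PCDHGB1 leave out 0 at an unadjusted p of 0.0515 and 0.0516 (edgeR). Filled points have an adjusted p under 0.05, and 7 points, all to the right of 0, are filled.

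Among the non-clustered protocadherins 3 of 6 tested rose, beside 12.9% of all genes tested. The largest fold was in PCDH18 and the smallest p in PCDH7. PCDH7 (GRCh37 chromosome 4, 30721991 to 31148427, plus strand) encodes a delta-1 protocadherin whose cytoplasmic tail binds protein phosphatase 1 and SET. It stood at 46.5 and 44.3 CPM with PELP1 siRNA, against 26.9 and 26.3 CPM with control siRNA. The log2 fold change of PCDH7 was 0.77 (SE 0.0903, adjusted p = 7.79e-07), from 915 and 840 counts with PELP1 siRNA and 522 and 589 with control siRNA. The gap between the groups was many times the difference within either. It shares 12.4% of its exon bases with a gene on the opposite strand.

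PCDH18 (GRCh37 chromosome 4, 138440072 to 138453648, minus strand), a delta-2 protocadherin that binds the adaptor Dab1 in the mouse, stood at 17.1 and 14.2 CPM with PELP1 siRNA and at 7.53 and 8.88 CPM with control siRNA. It rose 1.90-fold (log2 fold change 0.92, SE 0.133, adjusted p = 1.27e-05). The libraries of the groups did not overlap, and its exons share no base with another annotated gene. DAB1, the human counterpart of that adaptor, had 0 counts in all 4 libraries.

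PCDH17 (GRCh37 chromosome 13, 58205878 to 58303445, plus strand), a delta-2 member that recruits the actin-regulating WAVE complex, stood at 31.2 and 30.1 CPM with PELP1 siRNA and at 26.9 and 24.0 CPM with control siRNA. The rise of 0.27 on the log2 scale (SE 0.0963, adjusted p = 0.0391) was the smallest of the 7. The call ended with DESeq2 (adjusted p = 0.129), without control siRNA library 1 (0.143) or without control siRNA library 2 (0.497). It shares 7.79% of its exon bases with a gene on the opposite strand.

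PCDH9 (GRCh37 chromosome 13, 66876966 to 67804577, minus strand), a delta-1 protocadherin, had the most reads of the non-clustered genes. It stood at 63.3 and 50.7 CPM with PELP1 siRNA and at 54.7 and 54.7 CPM with control siRNA, so the PELP1 siRNA libraries lay on either side of the controls. The log2 fold change of PCDH9 was 0.059 (adjusted p = 0.673), with an approximate 95% interval, from its SE, of -0.12 to 0.24. Without PELP1 siRNA library 2 the value was 0.21 (adjusted p = 0.00446), and without PELP1 siRNA library 1 it was -0.11. In their shares of the non-clustered reads the libraries of the groups did not overlap for either PCDH7 or PCDH9. PCDH7 made up 27.4 and 30.0% of these reads with PELP1 siRNA and 21.8 and 21.4% with control siRNA. PCDH9 made up 37.3 and 34.3% with PELP1 siRNA and 44.2 and 44.5% with control siRNA. Shares of one sum depend on each other, so they add no separate result to the levels of the genes.

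PCDH10, a delta-2 member that also binds the WAVE complex, stood at 7.36 and 5.74 CPM with PELP1 siRNA and at 4.39 and 5.36 CPM with control siRNA. The value of 0.42 on the log2 scale (SE 0.172, adjusted p = 0.0709) missed the threshold, although its libraries did not overlap, and it was 0.59 (adjusted p = 0.00417) without PELP1 siRNA library 2. PCDH15 overlapped between the groups, at 3.10 and 1.84 CPM with PELP1 siRNA and 2.17 and 2.90 CPM with control siRNA (log2 fold change -0.043, adjusted p = 0.918). PCDH1, PCDH12, PCDH19 and PCDH20 had between 0 and 12 counts in a library and were not tested. PCDH8 and PCDH11X had 0 in all 4. PCDH11Y is not described.

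**Figure D3:**
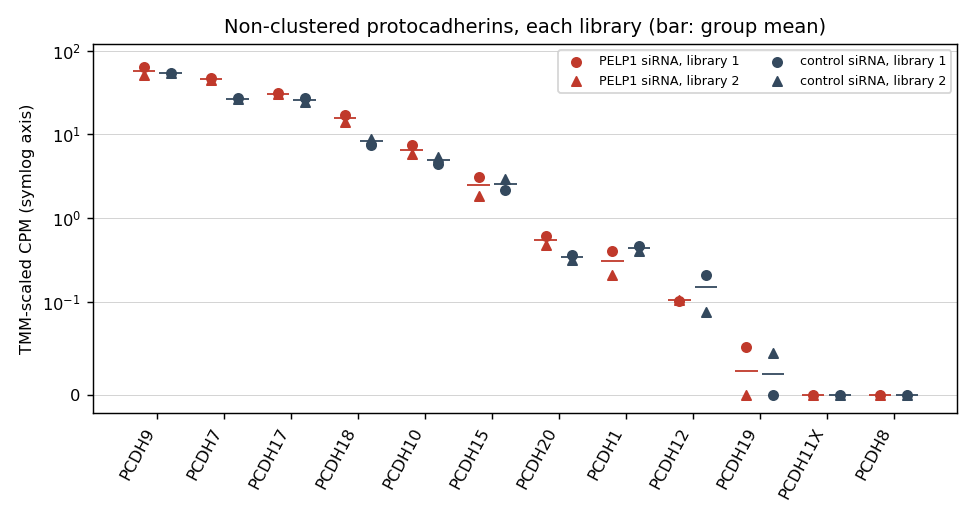
TMM-scaled CPM of 12 non-clustered protocadherins in each library, with a bar for each group mean, on an axis that is logarithmic above 0.1 and linear below it. The groups separate clearly for PCDH7 and PCDH18 and by less for PCDH17, while the libraries of PCDH9 overlap.

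The PCDHB genes (GRCh37 chromosome 5, 140430959 to 140628933, plus strand) were low one by one. With PELP1 siRNA 3 of the 14 tested rose, beside 12.9% of all genes tested. The other 11 did not pass. A positive log2 fold change was found in 12 of the 14, beside 6632 of all 13234 genes tested. The groups did not overlap for 8, all of them higher with PELP1 siRNA, and overlapped for 6. Over all genes tested, 32.0% were higher and 32.3% lower without overlap. PCDHB14 (140602915 to 140607331), whose promoter window is printed above, stood at 7.62 and 7.48 CPM with PELP1 siRNA and at 5.26 and 5.22 CPM with control siRNA. It rose by 0.53 on the log2 scale (SE 0.152, adjusted p = 0.0115), and the libraries of each group lay close together beside the difference between groups.

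PCDHB6 (140529638 to 140532868) stood at 4.16 and 4.11 CPM with PELP1 siRNA and at 2.53 and 2.99 CPM with control siRNA (log2 fold change 0.58, SE 0.198, adjusted p = 0.0320). PCDHB5 (140514788 to 140518197), the gene just before it, stood at 1.57 and 1.53 CPM with PELP1 siRNA and at 0.671 and 0.982 CPM with control siRNA. PCDHB5 rose by 0.89 on the log2 scale (SE 0.319, adjusted p = 0.0405), on 13 to 31 counts a library. In both genes the PELP1 siRNA libraries lay closer together than the control siRNA libraries. With 2 libraries and counts this low, that says little about the spread. PCDHB14, PCDHB6 and PCDHB5 were not called by DESeq2 (adjusted p = 0.101, 0.206 and 0.261) or without either control siRNA library, and PCDHB5 in none of the fits that leave out 1 library.

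PCDHB16 was the most abundant PCDHB gene and did not pass the threshold. It stood at 9.70 and 8.43 CPM with PELP1 siRNA and at 9.65 and 9.55 CPM with control siRNA (log2 fold change -0.081, SE 0.134, adjusted p = 0.691), with an approximate 95% interval of -0.34 to 0.18 that leaves out the value of PCDHB14. PCDHB7, the third by level, stood at 4.16 and 4.27 CPM with PELP1 siRNA and at 3.20 and 3.12 CPM with control siRNA, without overlap (log2 fold change 0.42, SE 0.190, adjusted p = 0.107). PCDHB17, a pseudogene whose exons lie wholly within another annotated gene on the same strand, stood at 1.17 and 1.21 CPM with PELP1 siRNA and 0.774 and 0.536 CPM with control siRNA (log2 fold change 0.87, adjusted p = 0.0715). In order along the cluster, PCDHB5, PCDHB6, PCDHB17 and PCDHB7 had log2 fold changes of 0.89, 0.58, 0.87 and 0.42. The next genes, PCDHB8 and PCDHB16, had -0.020 and -0.081, PCDHB9 after them had 0.47, and PCDHB14 lies further on. This stretch was picked after its values were seen, and a link of the change to place was not tested.

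The other tested PCDHB genes had log2 fold changes of 0.083 (PCDHB2), 0.14 (PCDHB11), 0.19 (PCDHB13), 0.20 (PCDHB10), 0.39 (PCDHB12 and PCDHB15) and 0.47 (PCDHB9), and none passed the threshold. PCDHB9 stood at 2.74 and 2.95 CPM with PELP1 siRNA and at 1.96 and 2.14 CPM with control siRNA. PCDHB2 shares 43.8% and PCDHB16 shares 21.2% of its exon bases with a gene on the opposite strand, which counting without strand would not tell apart. PCDHB1, PCDHB3, PCDHB4, PCDHB18 and PCDHB19P had 0 to 16 counts a library and were not tested. The PCDHB coding sequences are alike: a median of 13.5% of the 50-base windows of a gene's own exons recur elsewhere in the cluster, with 14.1% in PCDHB6, 12.3% in PCDHB5 and PCDHB14 and 45.2% in PCDHB8. A 50-base read from such a window aligns to more than 1 place.

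The PCDHG cluster (GRCh37 chromosome 5, 140710081 to 140892544, plus strand) gave 1 rise among 11 genes tested, beside 12.9% of all genes tested. PCDHGA1, its first gene (140710081 to 140892542), stood at 4.77 and 3.79 CPM with PELP1 siRNA and at 2.63 and 2.81 CPM with control siRNA. It rose by 0.65 on the log2 scale (SE 0.202, adjusted p = 0.0177), and its libraries did not overlap. The call ended with DESeq2 (adjusted p = 0.144), without PELP1 siRNA library 1 (0.110) and without either control siRNA library (0.150 and 0.0882).

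PCDHGC3 (140855514 to 140892544) stood at 68.4 and 60.0 CPM with PELP1 siRNA and at 64.0 and 62.8 CPM with control siRNA. The log2 fold change of PCDHGC3 was 0.019 (SE 0.0825, adjusted p = 0.887), and its approximate 95% interval ran from -0.14 to 0.18, so that a change as large as that of PCDHGA1 lies outside it. PCDHGC5, the last C-type gene, stood at 10.4 and 9.38 CPM with PELP1 siRNA and at 9.65 and 9.02 CPM with control siRNA (log2 fold change 0.087, SE 0.132, adjusted p = 0.662). PCDHGA9 stood at 5.89 and 4.43 CPM with PELP1 siRNA and at 5.31 and 4.11 CPM with control siRNA (log2 fold change 0.14, SE 0.187, adjusted p = 0.608). In all 3 genes the libraries of the groups overlapped.

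The shares of the PCDHG reads lay within a few percentage points of each other in the 4 libraries. PCDHGC3 gave 63.2 and 64.5% of them with PELP1 siRNA and 63.8 and 65.6% with control siRNA. The A-type genes, PCDHGA, gave 19.1 and 17.0% with PELP1 siRNA and 18.3 and 18.0% with control siRNA, and the B-type genes, PCDHGB, gave 7.55 and 7.99% with PELP1 siRNA and 7.71 and 6.43% with control siRNA. PCDHGB1, the fourth gene of the cluster, had libraries that did not overlap (log2 fold change 0.41, adjusted p = 0.131). The others tested, PCDHGA2 (0.15), PCDHGB7 (-0.015), PCDHGB2 (-0.18), PCDHGA10 (-0.21), PCDHGA4 (-0.24) and PCDHGC4 (-0.34), did not pass. The 12 PCDHG genes not tested had 0 to 13 counts a library.

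The PCDHA cluster (GRCh37 chromosome 5, 140165721 to 140391932, plus strand) was nearly silent, with 23 to 35 counts in a library over its 15 genes. Only its last gene, the C-type PCDHAC2, was tested, at 0.812 and 0.632 CPM with PELP1 siRNA and 0.929 and 0.982 CPM with control siRNA (log2 fold change -0.40, SE 0.362, adjusted p = 0.439). PCDHAC2 gave 59.3 and 52.2% of the PCDHA reads with PELP1 siRNA and 64.3 and 62.9% with control siRNA. PCDHA1 had 2 and 4 counts with PELP1 siRNA and 3 and 2 with control siRNA, and PCDHA10 had 5 and 0 with PELP1 siRNA and 2 and 3 with control siRNA. PCDHA2, PCDHA5, PCDHA6, PCDHA8 and PCDHA9 had 0 counts in every library, which allows up to 3 counts, or 0.152 and 0.158 CPM in the PELP1 siRNA libraries and 0.155 and 0.134 CPM in the control siRNA libraries, by counting error alone. The approximate 95% interval of the log2 fold change of PCDHAC2 ran from -1.11 to 0.31, and the other 14 PCDHA genes had too few counts to be tested.

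**Figure D4:**
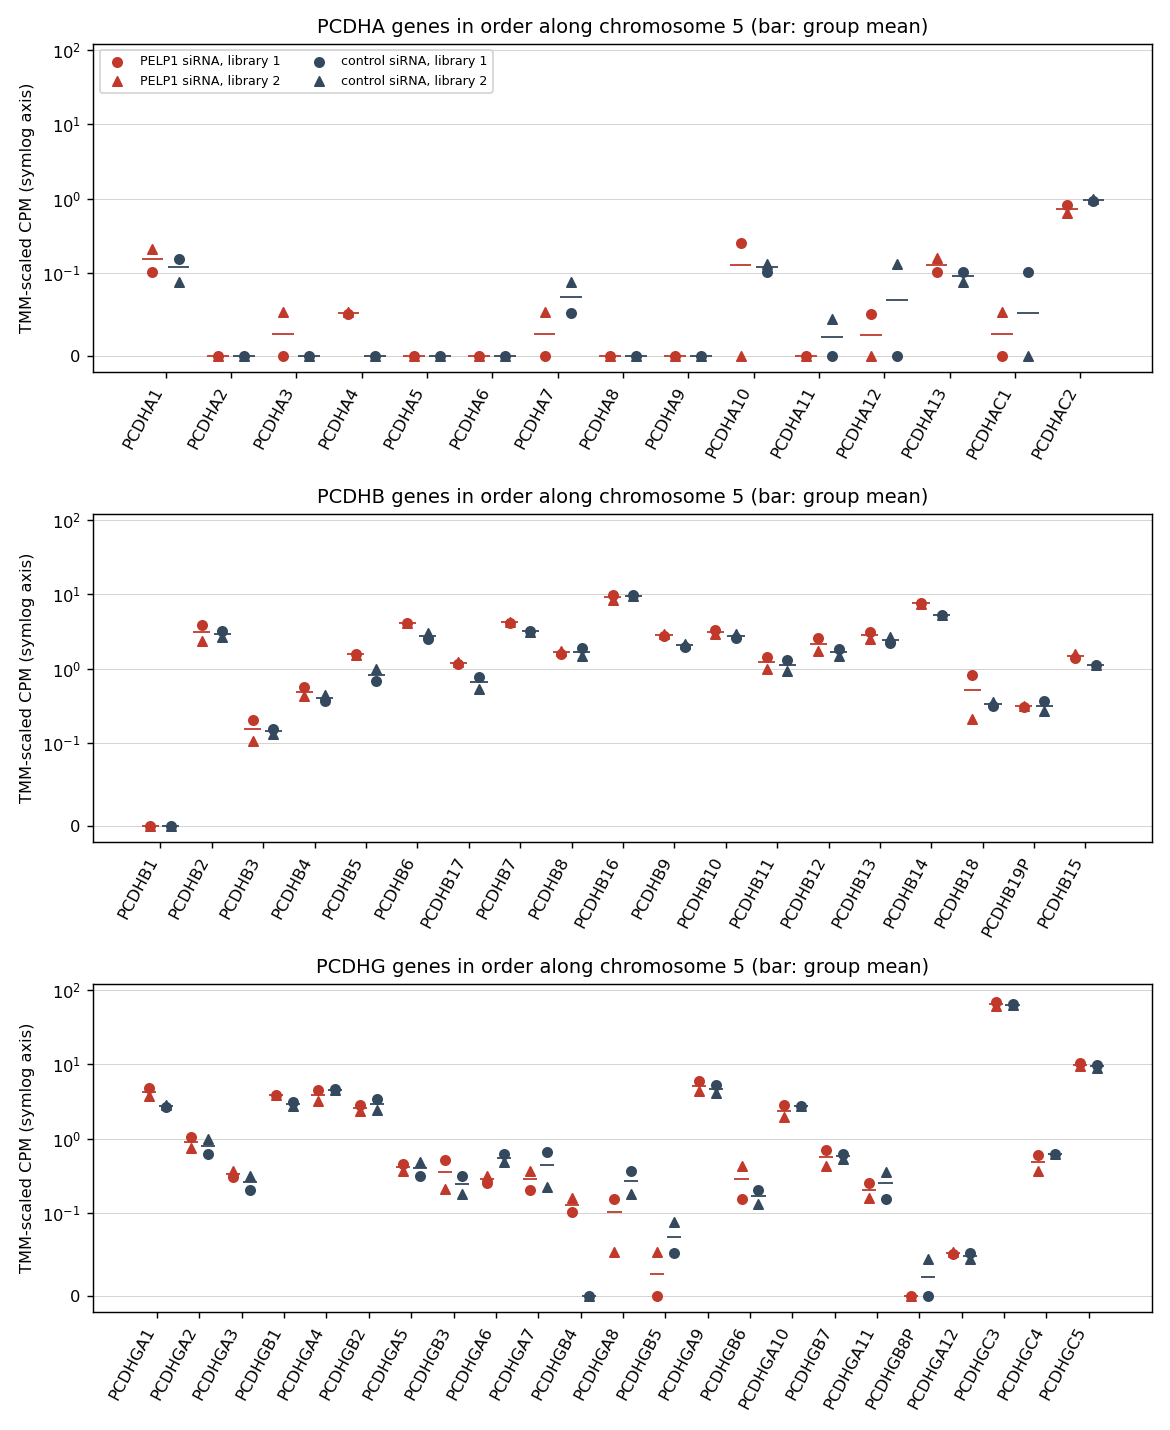
TMM-scaled CPM of the 15 PCDHA, 19 PCDHB and 23 PCDHG genes in each library, in order along chromosome 5, with a bar for each group mean. The axis is logarithmic above 0.1 and linear below it. PCDHGC3 stands highest, at 60.0 to 68.4 CPM, and most PCDHA genes lie at or near 0.

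For genes of the PCDHA and PCDHG clusters the counts rest on part of each transcript, if the counting used exons like those of GENCODE. The 3 constant exons of PCDHA span 59, 89 and 2721 bases and those of PCDHG span 59, 89 and 2029 bases in the annotation. The counter set ambiguous reads aside, 1.44 to 1.50% of those uniquely aligned over all genes. A read in an exon that the annotation of the counting gives to several genes is ambiguous. The exon bases shared with another gene on the same strand came to a median of 46.6% per PCDHA gene (21.4 to 56.6%) and 43.8% per PCDHG gene (0 to 64.4%), with 34.5% in PCDHGA1 and 40.1% in PCDHGC3. With such exons the values above would rest mainly on the own first exon of each gene. How the counting treated the shared exons is not known, and the summed output of a cluster's shared exons was not measured.

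Summed over all members, tested or not, PCDHB stood at 50.3 and 44.9 CPM with PELP1 siRNA and at 39.4 and 39.0 CPM with control siRNA, and both PELP1 siRNA libraries lay above both controls. The non-clustered sum, PCDH11Y left out, was 169.6 and 147.6 CPM with PELP1 siRNA and 123.6 and 123.0 CPM with control siRNA, likewise without overlap. Both sums include the members called higher, among them PCDH7, PCDH18 and PCDH17 in the non-clustered sum. They therefore add no separate result to the levels of the genes. The PCDHG sum was 108.2 and 92.9 CPM with PELP1 siRNA and 100.3 and 95.7 CPM with control siRNA, with overlap. These sums gave log2 ratios of 0.28 for PCDHB, 0.36 for the non-clustered genes and 0.037 for PCDHG. The spread between libraries within a group, as an SD pooled over both groups, was 0.082, 0.10 and 0.11 on the same scale. PCDHA summed to 1.37 and 1.21 CPM with PELP1 siRNA and 1.44 and 1.56 CPM with control siRNA, a log2 ratio of -0.22 (spread 0.11). The PELP1 siRNA libraries differed from each other more than the control siRNA libraries did. Genes with at least 20 counts over the 2 libraries of a group were taken, so the genes differ in part between the groups. Over 33 protocadherins in each group the chi-square per gene was 2.86 for PELP1 siRNA and 0.896 for control siRNA. Over all such genes, 13085 with PELP1 siRNA and 13242 with control siRNA, it was 7.13 and 2.09.

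**Figure D5:**
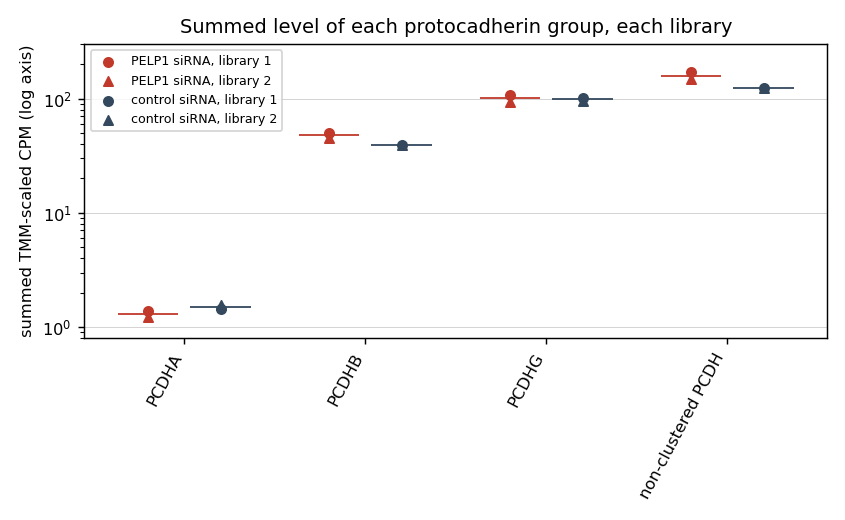
Summed TMM-scaled CPM of each branch in each library on a log axis, with a bar for each group mean. For PCDHB and the non-clustered genes both PELP1 siRNA libraries lie above both control siRNA libraries, while for PCDHG the groups overlap.

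Among factors that act at clustered protocadherin promoters the subunit RAD21 and the regulator PDS5B rose, and PDS5A fell. Of 24 genes for CTCF, cohesin, its loaders and regulators, and silencing factors, 23 were tested, of which 2 rose, 1 fell and 20 did not pass, beside 12.9% higher and 15.0% lower of all genes tested. Their median log2 fold change was -0.019. RAD21, the cohesin subunit cut at anaphase, averaged 411 ± 31.2 CPM with PELP1 siRNA and 345 ± 5.69 CPM with control siRNA (SD, n = 2 libraries each; log2 fold change 0.25, adjusted p = 0.00492 from edgeR). PDS5B and PDS5A both bind cohesin. PDS5B averaged 42.3 CPM with PELP1 siRNA and 34.7 CPM with control siRNA (0.29, adjusted p = 0.0169). PDS5A averaged 194 CPM with PELP1 siRNA and 238 CPM with control siRNA (-0.30, adjusted p = 0.00136). CTCF averaged 80.8 CPM in both groups. SMCHD1, which silences clustered protocadherins in the mouse, averaged 103 CPM in both groups.

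ADAM10 and gamma-secretase are the proteases that release protocadherin fragments from the membrane. Of their 7 genes 1 rose, 1 fell and 5 did not pass, beside 12.9% higher and 15.0% lower of all genes tested. The median log2 fold change of the 7 was 0.056. Both that changed encode gamma-secretase subunits, as do all genes of this list other than ADAM10. PSENEN averaged 81.5 CPM with PELP1 siRNA and 64.9 CPM with control siRNA (0.33, adjusted p = 0.00252), and it shares 31.3% of its exon bases with a gene on the opposite strand and 21.0% with one on the same strand. NCSTN averaged 73.0 CPM with PELP1 siRNA and 96.4 CPM with control siRNA (-0.40, adjusted p = 2.65e-04).

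Of 23 cytoplasmic partners of protocadherins, 22 were tested, of which 3 rose, 5 fell and 14 did not pass, beside 12.9% higher and 15.0% lower of all genes tested. Their median log2 fold change was -0.024. MARCKS, a membrane-bound actin regulator that lies downstream of PCDHG proteins in mouse neurons, averaged 197 ± 2.23 CPM with PELP1 siRNA and 126 ± 2.49 CPM with control siRNA (SD, n = 2 libraries each; log2 fold change 0.65, adjusted p = 9.38e-08 from edgeR). PTK2, the focal adhesion kinase that binds the shared tails of PCDHA and PCDHG proteins, averaged 213 CPM with PELP1 siRNA and 175 CPM with control siRNA (0.28, adjusted p = 0.00226). The kinase FYN averaged 92.0 CPM with PELP1 siRNA and 116.5 CPM with control siRNA (-0.34, adjusted p = 7.57e-04). The intermediate filament gene NES averaged 33.6 CPM with PELP1 siRNA and 47.8 CPM with control siRNA (-0.51, adjusted p = 2.90e-04).

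Among 26 other large and atypical cadherins, 15 were tested. Of these 1 rose, 2 fell and 12 did not pass, beside 12.9% higher and 15.0% lower of all genes tested. Their median log2 fold change was -0.26, beside 0.17 over the protocadherins tested, and the difference between the lists was not tested. The calsyntenin CLSTN1 averaged 227 CPM with PELP1 siRNA and 198 CPM with control siRNA (0.20, adjusted p = 0.0227). The desmosomal cadherin DSG2 averaged 67.9 CPM with PELP1 siRNA and 88.1 CPM with control siRNA (-0.37, adjusted p = 0.00153). CELSR3, a seven-pass cadherin of planar polarity, averaged 29.8 CPM with PELP1 siRNA and 35.8 CPM with control siRNA (-0.26, adjusted p = 0.0361). Without control siRNA library 1 or without control siRNA library 2, RAD21, PDS5A, PDS5B, PSENEN, PTK2, FYN, CLSTN1 and CELSR3 were no longer called, nor was NCSTN without control siRNA library 2, while MARCKS, NES and DSG2 were called in all 10 alternatives.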

How the data were processed

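The deposited values are raw read counts per gene symbol, 1 column a library, which the authors did not normalise. TopHat2 2.0.8b, HTSeq and CASAVA 1.8.2 are named, with GRCh37, per the submitters' processing notes. Per the labels' protocols, TruSeq total RNA libraries were read as 50-base single-end reads. Neither the strand setting of the counting nor the annotation release was given in the sources used here. The counter's summary lines, 36.0 to 37.6% of all counts, were left out.

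After TMM scaling, counts were fitted with edgeR 4.0.16 (robust quasi-likelihood, group as the only term) over the 13234 genes that passed filterByExpr (minimum count 10, minimum total 15), with Benjamini-Hochberg adjustment over all of them and calls at an adjusted p under 0.05. DESeq2 1.42.0 was an alternative, beside other scalings and filters, a replicate block and fits without each library. The fit was tested on simulated data. The libraries' numbers do not pair them (correlation of deviations -0.0411). Exon overlaps come from GENCODE for GRCh37.

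Every tested member is named. Full values are given for members called and for the 3 most abundant of each branch, and 2 called genes in each direction stand for each list. The members, lists, rule and words were chosen with earlier results of these data known. The cell type markers, CTCF, SMCHD1 and DAB1 were singled out after their values were seen.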

Additional observations from a re-analysis of the deposited data

How the results depend on the processing

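PCDH7 (log2 fold change 0.74 to 0.82, adjusted p at most 6.40e-05) and PCDH18 (0.78 to 1.05, at most 3.28e-04) were called higher in all 10 alternatives. The 4 clustered members called higher became 0 with the DESeq2 Wald test and between 0 and 3 in the fits without 1 library (0 without either control siRNA library, 2 without PELP1 siRNA library 1). The 3 non-clustered members called higher became between 2 and 5 without 1 library, with PCDH9 and PCDH10 added without PELP1 siRNA library 2. No member was called lower by edgeR or DESeq2 in any alternative. Over the fits without 1 library the log2 ratio of summed PCDHB CPM ran from 0.195 to 0.36, lowest without PELP1 siRNA library 1, that of the non-clustered sum from 0.26 to 0.46, that of PCDHG from -0.077 to 0.14 and that of PCDHA from -0.31 to -0.13. The cause of these shifts was not tested. With a replicate block, which treats equal library numbers as paired, 4 clustered and 2 non-clustered members were called higher, and PCDH17 had an adjusted p of 0.0501. A fit without 1 library leaves a lone sample in a group, whose spread is taken to equal that of the other group. Over all genes, calls went to 523 higher and 943 lower without control siRNA library 1, to 614 and 1075 without control siRNA library 2, to 2724 and 2804 without PELP1 siRNA library 1 and to 2604 and 2629 without PELP1 siRNA library 2. The counts were 1127 and 1425 with the DESeq2 Wald test. With scaling by total counts they were 2272 and 1597, against 1712 and 1980, and moved the median of all genes to 0.049. Counts under 20 a library limit most clustered members.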
